A study of Homo sapiens with 9 samples.

Results

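A set of 9 genes known from neurons, namely SHANK2, SHANK3, SORCS2, SERPINI1, CADPS, SH3GL3, TUB, CAMK1D and MYEF2, were followed in a colorectal cancer cell line and in its cetuximab-resistant derivatives. They were chosen from the gene names that the study printed in its volcano plots of each resistant line against the parental line, so their changes against parental cells are given as a description and without a test. They are 9 of the 58920 genes listed in the files and of the 19102 genes that had enough counts to be tested, and all 9 were among the latter. LIM1215 is an epithelial, RAS wild-type colorectal cancer cell line that responds to cetuximab, an antibody against the epidermal growth factor receptor. LIM1215-R1 and LIM1215-R2 are resistant populations that were derived in parallel by exposing LIM1215 cells for months to rising cetuximab concentrations. LIM1215-parental cells were kept in culture for the same time without the antibody. Neither resistant line is a single clone, and the study found activating HRAS mutations, different in each line, in a subpopulation of both. No agent was added to the cells from which RNA was taken. Each of the 3 lines was represented by 3 poly(A) RNA libraries, which the study called technical replicates, so the p-values measure only the spread between these libraries.

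At a synapse, regulated secretion, membrane retrieval and receptor anchoring are carried out by separate protein machines. CADPS, also called CAPS1, primes dense-core vesicles for fusion, SH3GL3 is an endophilin that bends membranes during endocytosis, and SHANK2 and SHANK3 are large scaffolds beneath postsynaptic receptors. SORCS2 is a sorting receptor of the sortilin family that binds neurotrophin precursors together with NGFR, and SERPINI1, or neuroserpin, is a secreted inhibitor of tissue plasminogen activator. TUB is the founder of the tubby family, which carries receptors into cilia, CAMK1D is a calcium/calmodulin-dependent kinase, and MYEF2 is a nucleic acid-binding protein named after the myelin basic protein gene. Several of them also act outside the nervous system, and SHANK2 binds ion transporters at the apical face of gut epithelium.

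Total counts lay between 13737416 and 18725014 per library, and values are given as CPM (counts relative to library size after scaling with edgeR's TMM factors), or as counts where these are few. Epithelial markers summed to 12266 to 12616 CPM in parental, 15843 to 16125 in LIM1215-R1 and 14355 to 14754 in LIM1215-R2 libraries, with KRT20 at 0 throughout. The sum is mostly KRT8 and KRT18. Of the others, EPCAM averaged 911, 758 and 729 CPM and CDH1 378, 343 and 347 in parental, LIM1215-R1 and LIM1215-R2 cells. CDX1 averaged 195, 108 and 124 CPM and CDX2 413, 305 and 283 in the same order. These 4 were lower in both resistant lines. KRT19, at 432, 648 and 580 CPM, and VIL1, at 309, 407 and 369 CPM, were higher in both. Of 16 neuronal markers, 8 had no count in any library, among them SYN1, STMN2, DCX, GAP43 and ELAVL4, and none of the 6 that could be tested was a DEG. Their summed level was 243 to 257 CPM in parental, 392 to 393 in LIM1215-R1 and 367 to 391 in LIM1215-R2 libraries. Most of it was the neurofilament gene NEFL, which averaged 215, 353 and 316 CPM in the same order of lines. The part of the epithelial and neuronal markers in the results was not tested. Of 15 enteroendocrine markers, 11 had no count, including NEUROG3, INSM1, PAX6 and GCG, and their sum never exceeded 1.08 CPM. Of 7 glial markers, 4 had no count, and their sum never exceeded 0.688 CPM.

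A differentially expressed gene (DEG) was called, with the thresholds of the study, where the adjusted p did not exceed 0.01 and the log2 fold change reached 1.5 in either direction. SHANK3, CADPS, SH3GL3 and MYEF2 were higher in both resistant lines, and SHANK2, SORCS2, SERPINI1, TUB and CAMK1D were lower in both. In LIM1215-R1, 6 of the 9 were DEGs, and across all genes tested 5.14% were, with 3.24% higher and 1.91% lower. In LIM1215-R2, all 9 were DEGs, against 4.82% of all genes, with 2.63% higher and 2.19% lower. The genes were picked from these same comparisons and both share the parental libraries, so nothing is read from the counts. The libraries are bulk samples of mixed populations, in which fewer expressing cells and less RNA per cell cannot be told apart. Just outside the fold threshold in LIM1215-R1 was SORCS2 at a log2 fold change of -1.28, followed by SERPINI1 at -0.74 and CAMK1D at -0.67. The smallest changes inside it were that of SHANK3 in LIM1215-R1 at 2.92 and that of CAMK1D in LIM1215-R2 at -1.76.

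**Figure D1:**
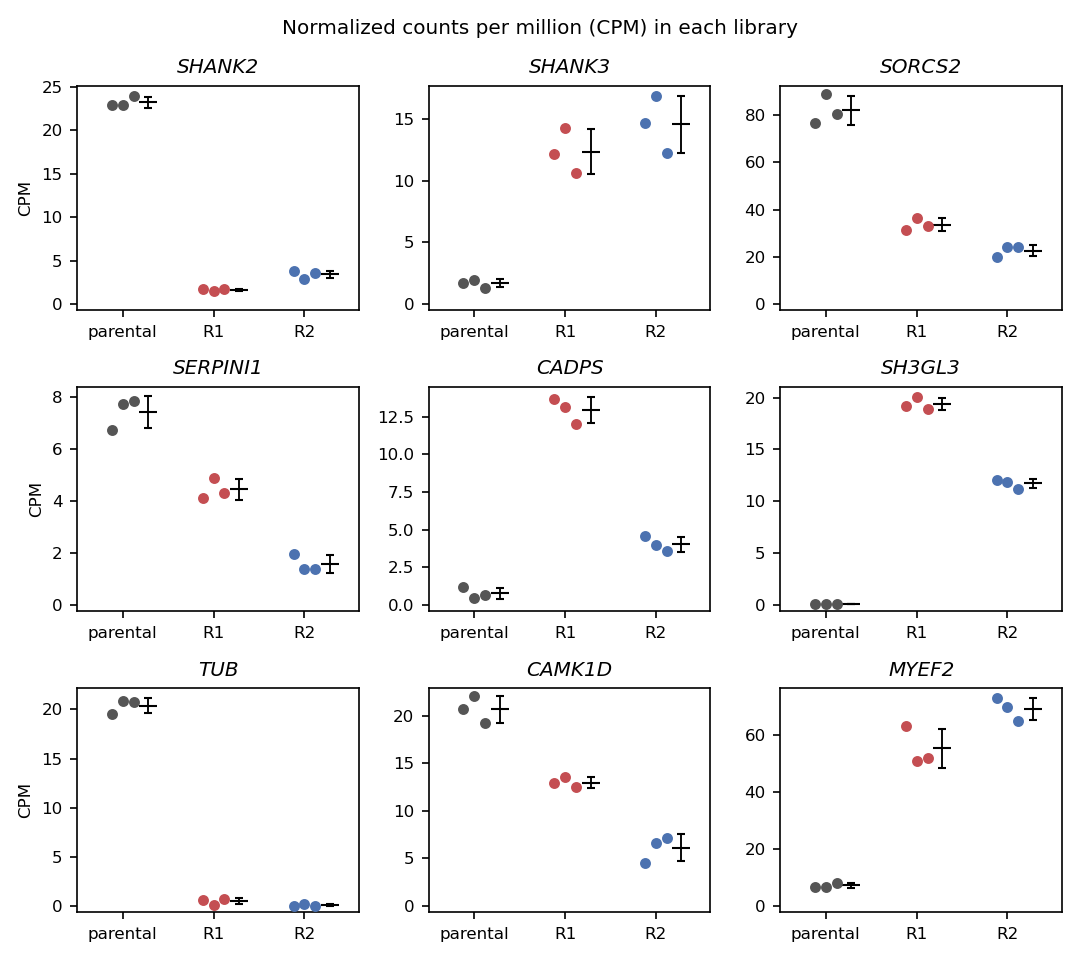
Level in CPM (linear axis) of each of the 9 genes in every library (points), with the 3 lines side by side and each line's mean and SD (n = 3) to the right of its points. For all 9 genes the parental libraries lay apart from both resistant lines, while SHANK3 and TUB overlapped between LIM1215-R1 and LIM1215-R2. The genes were chosen from the comparisons with parental cells, and the share of all genes separated in this way was not computed. Nothing is read from such separation or overlap, here or in the text.

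The difference between the resistant lines is another comparison than those that chose the genes, but it is not independent of the choice, since it uses the same resistant libraries and a gene that stood out in 1 line only is more likely to differ between them. It was fitted with edgeR's quasi-likelihood method, with p-values adjusted after Benjamini and Hochberg across the 19102 genes. At the same adjusted p and any fold change, 7 of the 9 genes differed. SHANK2 and MYEF2 were higher in LIM1215-R2, and SORCS2, SERPINI1, CADPS, SH3GL3 and CAMK1D were lower. Across all genes 7.16% reached this level, 3.39% higher and 3.77% lower. CADPS alone was a DEG between the resistant lines, where 0.764% of all genes were, 0.215% higher and 0.550% lower in LIM1215-R2. SHANK3 and TUB did not pass the test. These counts describe the 9 genes, and nothing is read from them against the shares of all genes.

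**Figure D2:**
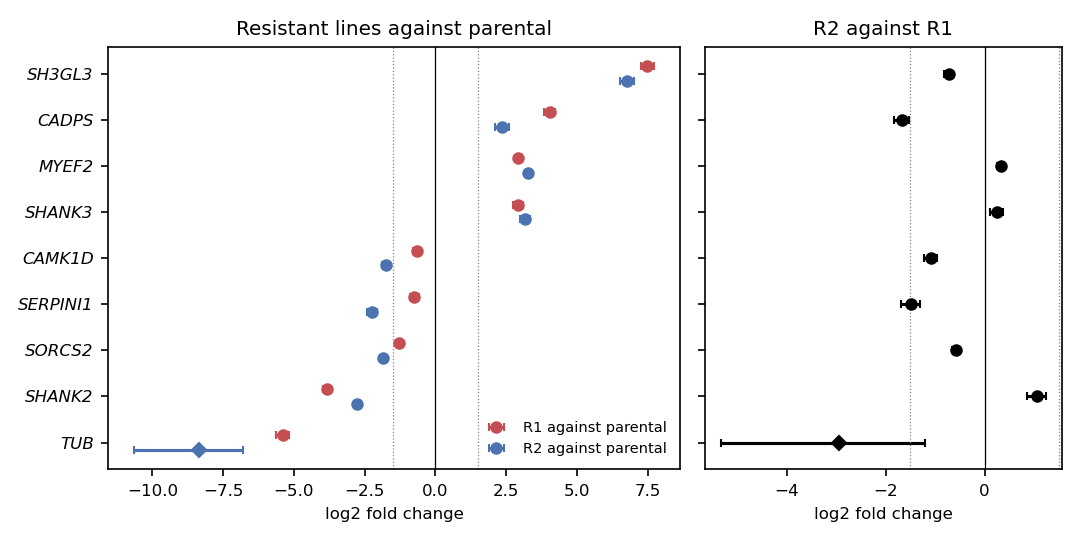
Log2 fold change of each gene in the resistant lines against parental cells (left) and in LIM1215-R2 against LIM1215-R1 (right). Circles carry the standard error, the diamonds of TUB the exact 95% counting interval of a ratio that involves 3 counts, and dotted lines mark the fold threshold of 1.5; CADPS was the only circle beyond it on the right.

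CADPS, the vesicle priming factor, had its lowest level in parental cells. Its parental libraries held 1.18, 0.433 and 0.683 CPM. Those of LIM1215-R1 held 13.7, 13.2 and 12.01 CPM, and those of LIM1215-R2 held 4.58, 3.96 and 3.59 CPM. The 3 lines were fully separated, with LIM1215-R1 highest and LIM1215-R2 in between. The log2 fold change against parental cells was 4.04 ± 0.20 (SE) in LIM1215-R1 and 2.36 ± 0.24 in LIM1215-R2. LIM1215-R2 was lower than LIM1215-R1 by -1.67 ± 0.15 on the log2 scale (edgeR's quasi-likelihood test, adjusted p = 5.17e-09). CADPS2, its paralog in the same priming role, was at 26.1 ± 2.07 (SD, n = 3), 25.2 ± 1.55 and 32.9 ± 0.942 CPM in parental, LIM1215-R1 and LIM1215-R2 cells. Per kilobase of exon, CADPS2 remained above CADPS in every line, at 4.11 against 0.0522 CPM in parental and 3.97 against 0.884 CPM in LIM1215-R1.

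SH3GL3, endophilin A3, went from a few reads to a well-measured level. Parental libraries held 2, 1 and 2 counts, LIM1215-R1 libraries 313, 319 and 302, and LIM1215-R2 libraries 203, 192 and 171. No resistant library came near the parental ones, and LIM1215-R2 lay below LIM1215-R1 throughout. From the summed counts, SH3GL3 was 193-fold higher in LIM1215-R1 (exact 95% counting interval 82.4 to 596) and 117-fold higher in LIM1215-R2 (49.8 to 361). Between the resistant lines the log2 difference was -0.72 ± 0.10 (SE; edgeR's quasi-likelihood test, adjusted p = 4.54e-06). The paralog SH3GL1 stood at 76.4, 84.1 and 77.3 CPM in parental, LIM1215-R1 and LIM1215-R2 cells and SH3GL2 at 28.02, 23.1 and 13.8 CPM. SH3GL2, the endophilin best known from brain, fell by 1.02 ± 0.08 on the log2 scale in LIM1215-R2 against parental cells and by 0.28 ± 0.08 in LIM1215-R1 (edgeR, adjusted p = 1.02e-10 and 0.00613).

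TUB showed the reverse picture. Parental libraries held 331, 289 and 395 counts, LIM1215-R1 libraries 9, 2 and 12, and LIM1215-R2 libraries 0, 3 and 0. Every resistant library was far below the parental ones, and the resistant lines overlapped. TUB was 42.7-fold lower in LIM1215-R1 (exact 95% counting interval 28.3 to 67.7) and 328-fold lower in LIM1215-R2 (112 to 1592). Between the resistant lines the ratio was 7.68 (2.32 to 39.9), which did not pass edgeR's quasi-likelihood test at the threshold (adjusted p = 0.0148), and 1 LIM1215-R2 library held all 3 counts of its line. TULP1 and TULP2 had no count in any library, whereas TULP3, which carries receptors into cilia with intraflagellar transport complex A, stood at 34.0, 34.4 and 35.4 CPM in parental, LIM1215-R1 and LIM1215-R2 cells. TULP4 was at 97.5, 71.4 and 68.3 CPM and was lower in both resistant lines, by -0.45 ± 0.06 and -0.51 ± 0.06 on the log2 scale (edgeR, adjusted p = 1.15e-06 and 1.38e-07).

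The sequences before the starts of these 3 genes are shown because their counts came closest to 0 in one of the lines. They are RefSeq promoter windows of 300 bases on GRCh38, 250 before and 50 after the annotated start, written on the strand of the gene with each CpG dinucleotide in capitals. The SH3GL3 window is chr15:83447091-83447390 (plus strand), that of TUB chr11:8018995-8019294 (plus strand) and that of CADPS chr3:62875367-62875666 (minus strand).
SH3GL3: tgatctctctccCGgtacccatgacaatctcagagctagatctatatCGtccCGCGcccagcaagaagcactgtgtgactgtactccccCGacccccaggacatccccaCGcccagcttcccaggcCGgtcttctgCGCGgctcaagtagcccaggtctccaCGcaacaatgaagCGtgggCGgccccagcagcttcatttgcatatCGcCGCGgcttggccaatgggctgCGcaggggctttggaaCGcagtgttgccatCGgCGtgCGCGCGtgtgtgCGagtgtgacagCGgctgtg
TUB: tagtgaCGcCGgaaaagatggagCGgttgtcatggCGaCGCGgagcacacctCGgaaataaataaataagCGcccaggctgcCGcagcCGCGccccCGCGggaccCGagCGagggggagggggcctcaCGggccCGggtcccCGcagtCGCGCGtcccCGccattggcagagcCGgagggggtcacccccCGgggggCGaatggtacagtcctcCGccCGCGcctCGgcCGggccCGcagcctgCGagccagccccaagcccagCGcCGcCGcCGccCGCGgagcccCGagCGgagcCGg
CADPS: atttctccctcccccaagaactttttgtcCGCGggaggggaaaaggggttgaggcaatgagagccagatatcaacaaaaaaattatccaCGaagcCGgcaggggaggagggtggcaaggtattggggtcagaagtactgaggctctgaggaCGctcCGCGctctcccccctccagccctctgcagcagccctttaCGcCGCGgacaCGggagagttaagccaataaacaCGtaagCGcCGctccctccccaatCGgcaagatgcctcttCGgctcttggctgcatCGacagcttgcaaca
They hold 24, 41 and 17 CpG dinucleotides, while the median over the 35116 windows of the table is 14 with quartiles of 4 and 28. SH3GL3 has another listed start with 2 CpG dinucleotides, and TUB has 2 more with 6 and 37. The counts are per gene, so they do not tell which start was used. The letters CAGCACC (part of the REST element), GGACAG (its other part), TGACTCA (the AP-1 element) and GGAATG (the TEAD element) were searched on both strands in all 9 windows found for 6 of the genes, including those of SHANK3, SERPINI1 and CAMK1D, and none was present. Over all windows of the table, 7.75%, 20.5%, 4.95% and 14% hold these letters, and the absence says only that they are not in these windows.

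SHANK2 and SHANK3 moved in opposite directions. SHANK2 stood at 22.9, 22.9 and 24.0 CPM in the parental libraries, at 1.72, 1.51 and 1.69 CPM in LIM1215-R1 and at 3.75, 2.91 and 3.53 CPM in LIM1215-R2. SHANK3 stood at 1.71, 1.95 and 1.31 CPM in the parental libraries, at 12.1, 14.3 and 10.6 CPM in LIM1215-R1 and at 14.7, 16.8 and 12.2 CPM in LIM1215-R2. For SHANK2 the 3 lines did not overlap, and for SHANK3 the resistant lines did. SHANK2 changed by -3.82 ± 0.14 (SE) in LIM1215-R1 and -2.77 ± 0.12 in LIM1215-R2 on the log2 scale, and LIM1215-R2 exceeded LIM1215-R1 by 1.05 ± 0.19 (edgeR's quasi-likelihood test, adjusted p = 0.000242). SHANK3 changed by 2.92 ± 0.18 and 3.16 ± 0.18, and its difference between the resistant lines, 0.24 with a 95% interval from -0.02 to 0.50, did not pass the test (edgeR, adjusted p = 0.240). Per kilobase of exon, the SHANK2 level in parental cells was 1.23 CPM and the SHANK3 level 0.116 CPM. In LIM1215-R1 the order was turned, with 0.0867 CPM for SHANK2 and 0.865 CPM for SHANK3. The third member of the family, SHANK1, had 1 count in all 9 libraries.

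Among 5 listed genes of apical transporters and scaffold proteins of gut epithelium, none was a DEG in the direction of SHANK2. CFTR, the apical chloride channel, was at 33.4, 97.9 and 131 CPM in parental, LIM1215-R1 and LIM1215-R2 cells and was their single DEG in both comparisons (log2 fold change 1.55 ± 0.06 and 1.97 ± 0.06; edgeR, adjusted p = 2.06e-17 and 9.65e-20). SLC9A3, the apical sodium-proton exchanger, stood at 6.75, 7.05 and 8.65 CPM, and the PDZ scaffold SLC9A3R1 (NHERF1) at 114, 122 and 110 CPM. Among 15 tested genes of the postsynaptic scaffold, HOMER2, which links SHANK proteins to glutamate receptors, was the single DEG and was higher in both lines (1.58 ± 0.18 and 1.64 ± 0.18; edgeR, adjusted p = 6.29e-08 and 2.67e-08). The median log2 fold change of these 15 genes was 0.25 and 0.29, while that of all genes tested was -0.01 and -0.0037. CTTN, which binds SHANK proteins and whose gene lies next to SHANK2, stood at 183, 192 and 185 CPM.

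SORCS2 was the most abundant of the 9 per length in parental cells, at 12.99 CPM per kilobase. Its parental libraries held 76.6, 88.9 and 80.6 CPM, those of LIM1215-R1 31.2, 36.5 and 33.2 CPM, and those of LIM1215-R2 19.9, 24.0 and 23.9 CPM. The lines formed separate steps from parental down to LIM1215-R2. The log2 fold change was -1.28 ± 0.08 (SE) in LIM1215-R1 and -1.86 ± 0.08 in LIM1215-R2, and the resistant lines differed by -0.57 ± 0.09 (edgeR's quasi-likelihood test, adjusted p = 2.29e-05). SORCS1 had 2 counts in all and SORCS3 had none, while the related receptors SORT1 and SORL1 averaged 142 and 307 CPM in parental, 132 and 207 CPM in LIM1215-R1 and 106 and 221 CPM in LIM1215-R2 cells. Of 5 tested genes of the sortilin and neurotrophin list, NGFR, the partner of SORCS2 at the membrane, was the single DEG. NGFR had no count in parental cells, 67 in LIM1215-R1 and 4 in LIM1215-R2. Against parental cells the level in LIM1215-R1 was higher at least 23.1-fold, set against a floor of 3 counts over the 3 parental libraries (edgeR, adjusted p = 4.06e-07), and was lower in LIM1215-R2 than in LIM1215-R1 (log2 fold change -3.95 ± 0.60; adjusted p = 4.30e-05).

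SERPINI1 was slightly lower in LIM1215-R1 and further down in LIM1215-R2. Its libraries held 6.73, 7.73 and 7.83 CPM in parental, 4.11, 4.90 and 4.32 CPM in LIM1215-R1 and 1.96, 1.36 and 1.37 CPM in LIM1215-R2 cells. The lines did not overlap. The log2 fold change was -0.74 ± 0.15 (SE) and -2.23 ± 0.18 against parental cells, and -1.49 ± 0.20 between the resistant lines (edgeR's quasi-likelihood test, adjusted p = 3.86e-06), just short of the fold threshold. Of the plasminogen activator list, PLAUR, the urokinase receptor, was a DEG in LIM1215-R1 at 1.53 ± 0.11 (edgeR, adjusted p = 7.60e-12) and stood at 1.43 ± 0.11 in LIM1215-R2, under the fold threshold. SERPINI2, the nearest relative of SERPINI1, had no count.

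CAMK1D showed the same order of lines. Parental libraries held 20.7, 22.03 and 19.3 CPM, LIM1215-R1 libraries 12.9, 13.6 and 12.5 CPM, and LIM1215-R2 libraries 4.52, 6.63 and 7.19 CPM. No 2 lines overlapped, and the first LIM1215-R2 library was the lowest. The log2 fold change was -0.67 ± 0.11 (SE) and -1.76 ± 0.12 against parental cells, and -1.09 ± 0.13 between the resistant lines (edgeR's quasi-likelihood test, adjusted p = 9.87e-07). Among 10 tested calmodulin kinases and their partners, CAMK1 fell from 36 counts to 2 in LIM1215-R1 and 1 in LIM1215-R2, ratios of 17.4 (exact 95% counting interval 4.48 to 149) and 34.9 (5.87 to 1415). CAMK4, a nuclear kinase of the same cascade, rose from 8.90 to 29.8 and 31.6 CPM (1.74 ± 0.10 and 1.83 ± 0.10; edgeR, adjusted p = 4.06e-14 and 1.29e-14). CAMK1G had no count, and PNCK held 2, 3 and 0 counts in parental, LIM1215-R1 and LIM1215-R2 cells.

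MYEF2, the nucleic acid-binding protein, was higher in both resistant lines. Its libraries held 6.79, 6.57 and 8.14 CPM in parental, 63.1, 50.6 and 51.9 CPM in LIM1215-R1 and 72.8, 69.6 and 64.9 CPM in LIM1215-R2 cells. The resistant libraries lay far above the parental ones, and the lowest of LIM1215-R2 lay just above the highest of LIM1215-R1. The log2 fold change was 2.93 ± 0.10 (SE) and 3.26 ± 0.10 against parental cells. LIM1215-R2 exceeded LIM1215-R1 by 0.32 ± 0.08 (edgeR's quasi-likelihood test, adjusted p = 0.00428), a call that was lost in 4 of 9 fits with a library left out, namely replicate 2 or 3 of LIM1215-R1 or replicate 1 or 2 of LIM1215-R2 (adjusted p up to 0.0509). HNRNPM, its RNA-binding relative, was at 476, 433 and 404 CPM, and MBP, the myelin gene that gave MYEF2 its name, at 66.9, 65.2 and 77.4 CPM in parental, LIM1215-R1 and LIM1215-R2 cells. The exons of MYEF2 overlap those of SLC24A5 and CTXN2 on the opposite strand, and those of TUB overlap RIC3, but reads were counted by strand and no exon of the 9 genes is shared on the same strand.

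**Figure D3:**
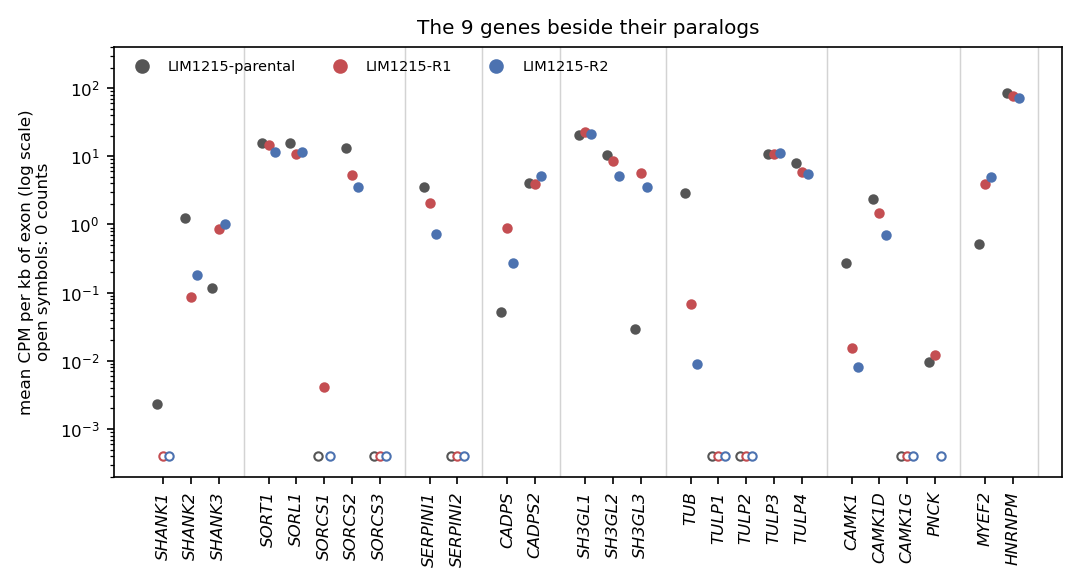
Level of each of the 9 genes and of its paralogs per kilobase of exon, on a log scale of mean CPM per kilobase, for the 3 lines, with open symbols for 0 counts. SHANK1, SORCS1, SORCS3, SERPINI2, TULP1, TULP2 and CAMK1G had at most 2 counts over all 9 libraries. SORT1, SORL1, CADPS2, SH3GL1, SH3GL2, TULP3, TULP4 and HNRNPM stood above the gene of the 9 that they are shown with in all lines.

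The wider machinery was followed in 13 lists of the pathways around these genes, with the 9 genes themselves left out. They named 202 genes, of which 135 could be tested. In LIM1215-R1, 25 of the 135 were DEGs, 17 higher and 8 lower, which is 18.5% against 5.14% of all genes tested. In LIM1215-R2, 22 were DEGs, 14 higher and 8 lower, which is 16.3% against 4.82%. With DESeq2's lfcShrink, the shrinkage that the study applied, 10 and 9 were. The lists were drawn up with earlier results of these data known, so nothing particular to them is read from these shares. All 22 were also among the 25 of LIM1215-R1 and in the same direction, and the other 3 were NGFR, PLAUR and NLGN2. Both comparisons share the parental libraries.

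**Figure D4:**
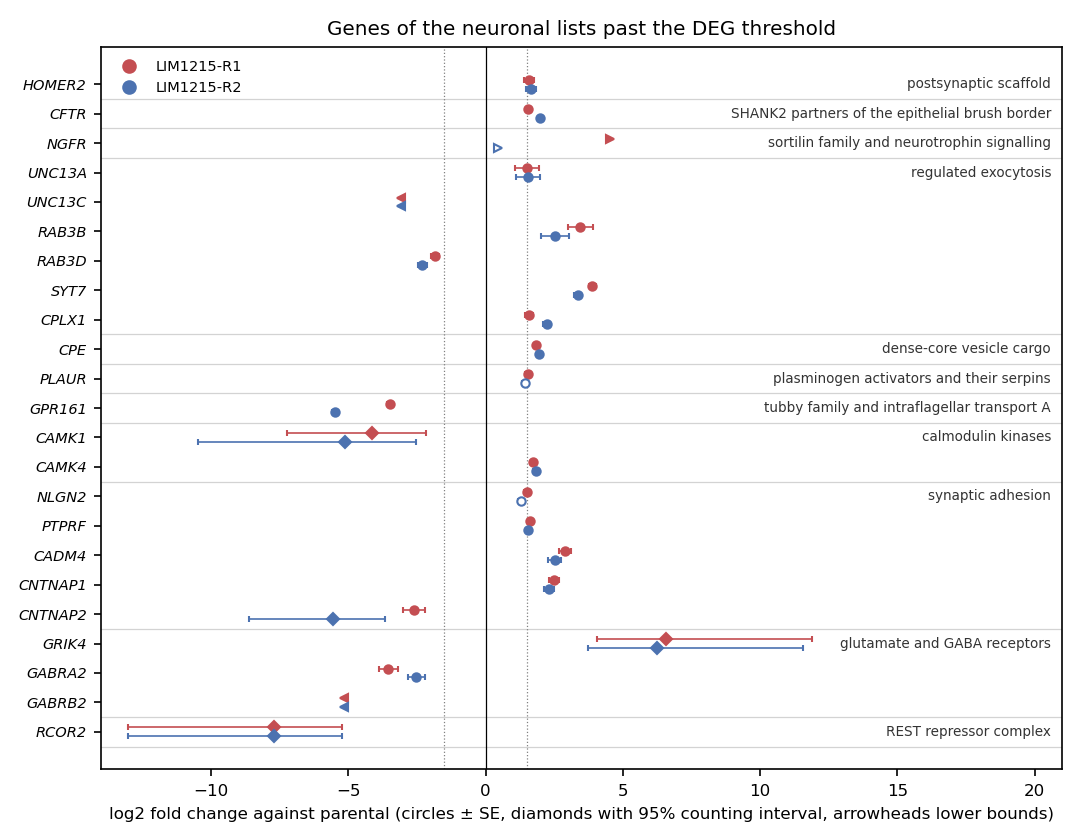
Log2 fold change against parental cells of listed genes that were DEGs in either resistant line and are reported here, grouped by list, in LIM1215-R1 and LIM1215-R2. Circles carry the standard error, diamonds the exact 95% counting interval of a ratio with 1 to 3 counts in a line, arrowheads are lower bounds against a line with 0 counts, and open symbols did not pass the DEG threshold.

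The secretory machinery that CADPS belongs to changed in both directions. Of 23 tested genes of regulated exocytosis, 5 were higher and 2 lower in each resistant line, with a median log2 fold change of 0.41 in LIM1215-R1 and 0.35 in LIM1215-R2. SYT7, a calcium sensor of vesicle fusion, rose from 2.84 to 42.2 and 29.3 CPM (3.88 ± 0.12 and 3.36 ± 0.13; edgeR, adjusted p = 1.75e-19 and 8.20e-18). The fusion clamp CPLX1 went from 3.38 to 9.92 and 15.7 CPM, the vesicle GTPase RAB3B from 0.138 to 1.62 and 0.854 CPM, and the priming factor UNC13A from 0.315 to 0.932 and 0.961 CPM. RAB3D fell from 13.7 to 3.78 and 2.75 CPM. UNC13C had 26 counts in parental cells and none in the resistant lines, at least 8.39-fold lower in LIM1215-R1 and 8.40-fold in LIM1215-R2. SNAP23 and VAMP2, which form the fusion complex in many cells, stood at 48.5 and 36.8 CPM in parental cells, 35.3 and 32.7 in LIM1215-R1 and 34.0 and 36.7 in LIM1215-R2.

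Among 5 tested cargo genes of dense-core vesicles, CPE, the carboxypeptidase that trims prohormones, was the single DEG, at 27.2, 98.0 and 104 CPM in parental, LIM1215-R1 and LIM1215-R2 cells (1.85 ± 0.06 and 1.93 ± 0.06; edgeR, adjusted p = 2.65e-19 and 9.53e-20). None of 23 tested endophilin and clathrin endocytosis genes was a DEG in any comparison, with median log2 fold changes of 0.10 and 0.08 against parental cells. Some of them changed by less than the DEG threshold, such as SH3GL2 above and PACSIN3, a membrane-bending protein of the F-BAR family, which stood at 17.5, 39.8 and 34.5 CPM in the same order of lines.

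Of 9 tested synaptic adhesion genes, LIM1215-R1 had 4 higher and 1 lower as DEGs, and LIM1215-R2 had 3 higher and 1 lower, with median log2 fold changes of 1.49 and 1.24. The receptor phosphatase PTPRF went from 90.4 CPM in parental cells to 279 and 262, the adhesion protein CADM4 from 0.781 to 6.02 and 4.63, and CNTNAP1 from 1.20 to 6.78 and 5.94. NLGN2, a partner of neurexins, went from 6.21 to 17.8 and 15.1 CPM and passed the fold threshold in LIM1215-R1 with 1.52 ± 0.11 and not in LIM1215-R2 with 1.28 ± 0.11. CNTNAP2 had 97, 15 and 2 counts in parental, LIM1215-R1 and LIM1215-R2 cells. Of the 26 adhesion genes listed, 9 had no count in any library.

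Of 10 tested subunits of glutamate and GABA receptors, the kainate receptor subunit GRIK4 was higher, with 1, 91 and 74 counts in the same order of lines, ratios of 94.0 (exact 95% counting interval 16.5 to 3755) and 76.4 (13.3 to 3057). The GABA receptor subunits GABRA2 and GABRB2 were lower. GABRA2 had 186, 15 and 31 counts, and GABRB2 had 110 counts in parental cells and none in the resistant lines, at least 35.5-fold lower in each. Of the 25 receptor genes listed, 11 had no count in any library.

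GPR161, a receptor that TULP3 brings into cilia, was the single DEG of 10 tested genes of the tubby and intraflagellar transport list. It was at 66.1, 5.83 and 1.45 CPM in parental, LIM1215-R1 and LIM1215-R2 cells, with log2 fold changes of -3.50 ± 0.09 and -5.50 ± 0.11 (edgeR, adjusted p = 1.74e-21 and 3.21e-23). It was also lower in LIM1215-R2 than in LIM1215-R1 (-2 ± 0.16; adjusted p = 1.09e-09) and, with NGFR, was 1 of the 2 listed DEGs between the resistant lines, 1.48% of the 135 against 0.764% of all genes.

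REST, the repressor that keeps many neuronal genes silent outside neurons, stood at 61.7, 53.5 and 62.1 CPM in parental, LIM1215-R1 and LIM1215-R2 cells. Of 12 tested genes of its complex, the corepressor RCOR2 was the single DEG and was lower, with 217, 1 and 1 counts, a ratio of 210 in both lines (exact 95% counting interval 37.3 to 8332 in LIM1215-R1 and 37.3 to 8341 in LIM1215-R2). Its relatives RCOR1 and RCOR3 were at 89.9 and 50.02 CPM in parental cells, 72.8 and 37.3 in LIM1215-R1 and 76.2 and 41.8 in LIM1215-R2. EHMT2 is listed at 0 in every library.

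The 9 genes lie on 7 chromosomes, SHANK2 and TUB both on chromosome 11, SORCS2 on 4, SERPINI1 and CADPS both on 3, SH3GL3 and MYEF2 both on 15, CAMK1D on 10 and SHANK3 on 22. Their 52 nearest tested protein-coding genes, up to 3 on each side, were compared with them. In each comparison with parental cells 45 of the 52 changed by less than 1 on the log2 scale and 3 were DEGs. This is 5.77% against 5.14% and 4.82% of all genes, shares that are not limited to protein-coding genes. PSAPL1, which lies within SORCS2, was lower in both lines as SORCS2 was (-1.95 ± 0.33 and -1.64 ± 0.32; edgeR, adjusted p = 2.96e-05 and 0.000164). SI had 16 counts in parental cells and none in the resistant lines. CCDC3, 61080 bases beyond CAMK1D, had 2, 37 and 1 counts in parental, LIM1215-R1 and LIM1215-R2 cells, against the direction of CAMK1D in LIM1215-R1. CFAP20DC, 3348323 bases from CADPS, had 5, 17 and 41 counts, while CADPS was higher in LIM1215-R1 than in LIM1215-R2. PDCD10, which lies 829 bases from SERPINI1, stood at 61.5, 52.9 and 50.3 CPM.

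**Figure D5:**
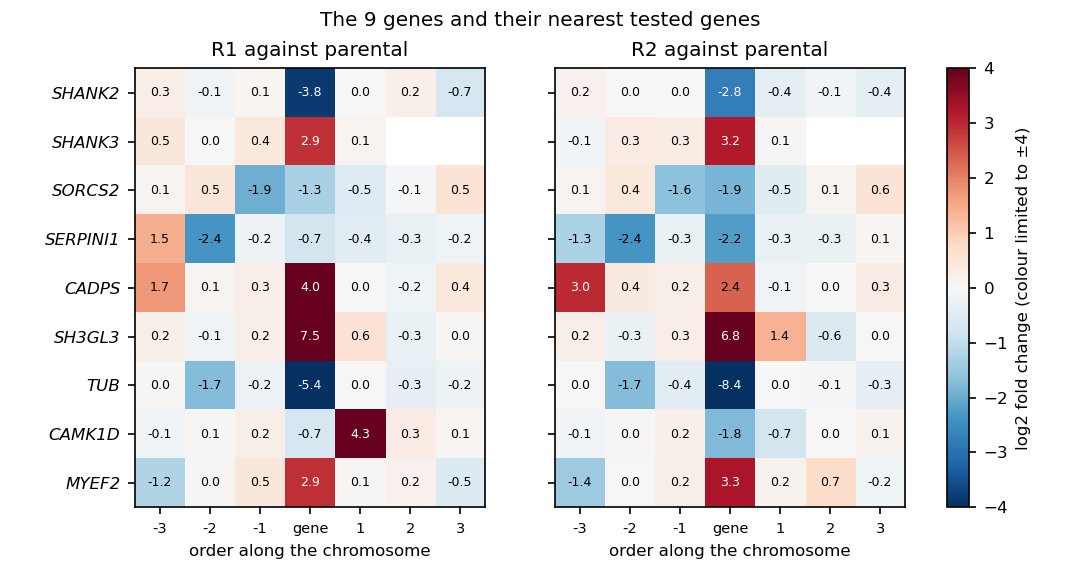
Log2 fold change against parental cells of the 9 genes (middle column) and of up to 3 tested protein-coding genes on each side in their order along the chromosome, for LIM1215-R1 (left) and LIM1215-R2 (right), with colours limited to ±4. White squares beside SHANK3 have no tested protein-coding gene, and 45 of the 52 neighbours in each panel lie within ±1.

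Among 12562 other genes, the patterns over the 9 libraries most like those of the 9 genes were described by Pearson's r of log2 CPM. With 3 lines of 3 libraries, such values mostly reflect the order and spacing of 3 levels. SH3GL3 was followed most closely by DUSP6 (r = 0.999), a phosphatase induced by MAPK signalling, and then by EPAS1 and KLK7. CADPS was closest to LAMA3 (0.999), PHKA1 and CXCL8, MYEF2 to DNAJA4 (0.998), ERRFI1 and SAMD4A, and SHANK3 to BICD2 (0.997), ITPR1 and ABHD2. Of the genes that were lower, SHANK2 was closest to ATP8A1 (0.996), ZNF605 and MME, TUB to TRIB2 (0.997), SLC9A2 and DOCK11, and SORCS2 to EPHA1 (0.997), ATP6V1C2 and CREB3L1. CAMK1D was closest to RPL31 (0.991), ELF3 and RPL10A, and SERPINI1 to TMEM238L (0.989), AKR1B10 and SH3GL2. DUSP6 stood at 26.8, 91.4 and 78.4 CPM in parental, LIM1215-R1 and LIM1215-R2 cells, and MME, the membrane peptidase that shared the pattern of SHANK2, at 16.7, 1.74 and 2.96 CPM.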

How the data were processed

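Poly(A) RNA was sequenced in 3 libraries for each of the 3 lines, LIM1215-parental, LIM1215-R1 and LIM1215-R2. The authors aligned paired-end reads to hg38 with STAR, counted reads of the sense strand per gene with htseq-count (HTSeq 0.9.1) and deposited raw counts for 58920 gene symbols per library. The gene annotation is not given in the sources used here. Total counts were 13737416 to 18725014, and counting intervals and floors cover counting error only. Replicates differed by more than counting noise (chi-square per degree of freedom 1.89 to 6.58).

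Differential expression was computed with edgeR 4.0.16 (limma 3.58.1, R 4.3.3). Genes whose counts over the 9 libraries summed to 10 or more, 19102 in all, were scaled by TMM, and a quasi-likelihood model with line as group was fitted to all libraries, with Benjamini-Hochberg adjustment. The procedure was tested on simulated data. The DEG thresholds were 0.01 for the adjusted p and 1.5 for the size of the log2 fold change. Ratios with 1 to 3 counts in a line have exact 95% counting intervals, and against 0 counts a floor of 3 counts per line (0.0602 to 0.0622 CPM) gives a bound. Exon lengths and positions came from GENCODE on GRCh38, promoter windows from RefSeq on GRCh38, where SHANK3, SERPINI1, CADPS, SH3GL3, TUB and CAMK1D matched and SHANK2, SORCS2 and MYEF2 did not.

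The genes named were the 9 members, listed genes past the DEG threshold, paralogs, neighbours past the threshold and the 3 genes of highest correlation with each member among genes of at least 1 CPM, with a prior count of 2. Other listed genes that are named, such as CTTN, SLC9A3, SLC9A3R1, SNAP23, VAMP2, REST, MBP and PACSIN3, and single markers were chosen after their values were seen. A few listed genes past the threshold are counted but not reported by name. The members, lists and markers were chosen with earlier results of these data known. Alternatives were DESeq2 1.42.0 with and without lfcShrink, other scalings and filters, a fold threshold of 1, fits to the 6 libraries compared, the replicate number as a block and each library left out.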

Additional observations from a re-analysis of the deposited data

Results flagged for a closer look

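These genes stood out because their change from parental cells differed between the resistant lines when that difference itself was tested (edgeR's quasi-likelihood test, adjusted p of at most 0.01; 7.16% of all genes reached this). As the change in LIM1215-R2 minus that in LIM1215-R1 on the log2 scale, SHANK2 differed by 1.05 and MYEF2 by 0.32, both higher in LIM1215-R2 in all 3 of its libraries. SORCS2 differed by -0.57, SERPINI1 by -1.49, CADPS by -1.67, SH3GL3 by -0.72 and CAMK1D by -1.09, all lower in LIM1215-R2 in all 3 libraries. Listed genes are given here only where they were also DEGs between the resistant lines, namely NGFR at -3.95 and GPR161 at -2. Smaller differences of other listed genes are left out. Since both changes use the same parental libraries, each difference equals LIM1215-R2 against LIM1215-R1 and does not depend on the parental level. For the 7 of the 9 genes this is not independent of their choice, which used the same resistant libraries. The MYEF2 difference is the smallest of these and its call was lost in 4 of 9 fits that left out a library.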

How the results depend on the processing

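Over all alternatives no change of the 9 genes turned its direction. Counts of DEGs were more sensitive. Between the resistant lines, 1 of the 9 genes was a DEG as reported; without a filter on low counts, with the DESeq2 Wald test and with the replicate block it was 2, with lfcShrink of type normal it was 0, with a fold threshold of 1 it was 4 (SHANK2, SERPINI1, CADPS and CAMK1D), and with each library left out it was 1 to 2. In the settings with 2, TUB or SERPINI1, each just outside 1 threshold as reported, joined CADPS: TUB without the filter, with the block and without parental, LIM1215-R1 or LIM1215-R2 replicate 2, and SERPINI1 with the Wald test and without LIM1215-R1 replicate 1 or 3 or LIM1215-R2 replicate 1. The sample labels do not say whether replicate numbers pair the libraries. Correlations of deviations from the line means were -0.19 to 0.58 for the same number and -0.57 to 0.44 for other numbers, which does not settle it. The block moved no other count by over 1.5 times, and under it TUB passed edgeR's quasi-likelihood test with an adjusted p of 0.00444.

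Requiring 10 counts in every library leaves out genes that are near 0 in a line. This filter left out CADPS, SH3GL3 and TUB, and 3 of the genes that remained were DEGs in LIM1215-R1. Of the listed genes that remained, 13 were DEGs in LIM1215-R1, 11 in LIM1215-R2 and 1 between the resistant lines. Of the neighbours that remained, 0 were DEGs in either line. Between the resistant lines SERPINI1 took the place of CADPS. The numbers of listed genes and neighbours that remained, and the share of all genes called, were not computed. Lost calls and removed genes are therefore not told apart in these counts. With lfcShrink of type normal, which draws fold changes of low counts toward 0, the listed DEGs were 10, 9 and 0 in the same order and the neighbours 0 in both lines. The share of all genes was not computed for it. TUB in LIM1215-R2 rests on the 3 counts of replicate 2, without which the line had none. Depth limits SH3GL3 in parental cells and TUB in the resistant lines, which held at most 12 counts per library.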
